A study of Mus musculus with 23 samples.

Results

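The 38 genes described here make fatty acids from acetyl-CoA, lengthen and desaturate them, activate them and build them into triglyceride. They were listed by symbol, with earlier results of these data known, and make up 38 of the 20308 genes in the table of expected counts. They cover the supply of acetyl-CoA and NADPH (Acly, Acss2, Acss3, Me1), palmitate synthesis (Acaca, Acacb, Fasn), elongation (Elovl1 to Elovl7, Tecr, Hsd17b12) and desaturation (Scd1, Scd2, Fads1, Fads2, Fads3). The others serve activation (Acsl1, Acsl3, Acsl4, Acsl5, Acsl6), glycerolipid assembly (Gpam, Agpat2, Agpat3, Lpin1, Lpin2, Dgat1, Dgat2), lipolysis (Pnpla2, Pnpla3) and transcriptional control (Srebf1, Mlxipl, Thrsp). Of the 38, 35 passed the filter on low counts and were tested among 13412 genes. Elovl3 had no count in any of the 23 libraries, Elovl2 had 17 counts over all libraries and Thrsp had 81.

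RNA was sequenced from the ventral prostate of C57BL/6J mice that had received their diet since before birth. The folic acid diet held 24 mg folic acid per kg and the control diet 4 mg. On each diet the gland was taken from intact mice at 7 weeks of age, or 3 d or 10 d after a castration at that age, which removes testicular androgen. The folic acid diet had 4 libraries in each state, and the control diet had 4 intact, 3 at 3 d (replicates 1, 3 and 4) and 4 at 10 d, each taken as 1 mouse. Castrated mice were older than intact mice and no group was sham-operated, so androgen loss, surgery and age cannot be told apart. Litters are not given in the labels, so litter and diet cannot be told apart either.

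As background, cytosolic citrate is cleaved to acetyl-CoA by Acly, carboxylated to malonyl-CoA by the acetyl-CoA carboxylases and joined into palmitate by Fasn. Elongases and desaturases turn palmitate into longer and unsaturated acyl chains, acyl-CoA synthetases activate free fatty acids, and the glycerol phosphate pathway joins them into phospholipid and triglyceride. In human prostate cells androgens are known to raise lipogenic genes, partly through sterol regulatory element-binding proteins.

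Total counts per library ranged from 6.38 to 15.6 M reads. Levels are normalised counts (CPM), brought to a common library size and scaled by the trimmed mean of M values (TMM), and the TMM factors ran from 0.553 to 1.69. Log2 changes are therefore relative to the bulk of tested genes. Sbp, a secreted protein, took up much of each intact library and fell after castration. If library totals are the only scale, the median tested gene shifts upward by log2 values of 0.80 (folic acid) and 0.73 (control) in 3 d mice and of 1.31 (folic acid) and 1.15 (control) in 10 d mice. Leaving Sbp out of the totals removes much of this shift, but not all. As an example, Acly at 3 d on control changed by 0.23 on library totals, -0.29 without Sbp and -0.51 on the TMM scale. Of the epithelial markers, Krt8 and Krt18 lay at 377 CPM or above in every library. Seminal vesicle markers summed to 1.76 CPM at most, while the 4 urothelium markers summed to 132 to 361 CPM. In bulk RNA, fewer cells of a type and less RNA per cell cannot be told apart. Genes called changed have an adjusted p under 0.05 (edgeR quasi-likelihood test, Benjamini-Hochberg over all tested genes).

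Relative to the bulk of tested genes, 7 members were called in all 4 comparisons of castrated with intact mice. Acly, Fasn, Scd1, Scd2, Acsl4 and Agpat3 were lower and Acss3 was higher. On library totals alone the log2 changes of Acly and Acsl4 turn positive in all 4, with Acly called higher only at 10 d and Acsl4 not called. On the TMM scale, 11 of 35 members were called at 3 d on the folic acid diet, where 14.3% of all tested genes were called. Of these, 9 were lower (8.27% of all genes) and 2 higher (6.07%). On the control diet at 3 d there were 10, where 9.98% of all genes were called, with 7 lower (6.15%) and 3 higher (3.83%), and without 3 d replicate 3 there were 5. At 10 d there were 15 on the folic acid diet, against a background of 21.9%, with 12 lower (11.7%) and 3 higher (10.2%). On the control diet at 10 d there were 11, against 16.6%, with 9 lower (9.45%) and 2 higher (7.15%). The median log2 change of the tested members was -0.43 on folic acid and -0.34 on control at 3 d, where the medians of all tested genes were 0.01 and -0.01. In 10 d mice the members' medians were -0.19 on folic acid and -0.31 on control, where those of all genes were 0.07 and 0.05.

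The split between lower and higher depends on the scale. With library totals alone, 1 member was lower and 8 were higher on folic acid in 3 d mice, and 1 and 9 on control. In 10 d mice 1 was lower and 17 were higher on folic acid, and 2 and 16 on control. On this scale the median tested gene also shifted upward, by log2 values of 0.73 to 1.31. The share of all tested genes called is not given here for this scale or the next. The counts are therefore not read as particular to the members. With library totals after Sbp was left out, a scale chosen after the data were seen, the same counts, in the same order, were 7 and 3, 4 and 4, 10 and 5, and 6 and 3. Scd2 was the only member called lower in all 4 comparisons on each of these scales. No member was called higher in some comparison and lower in another on the TMM scale: 12 members were called lower at least once, 4 higher at least once, and 19 were not called in any.

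**Figure D1:**
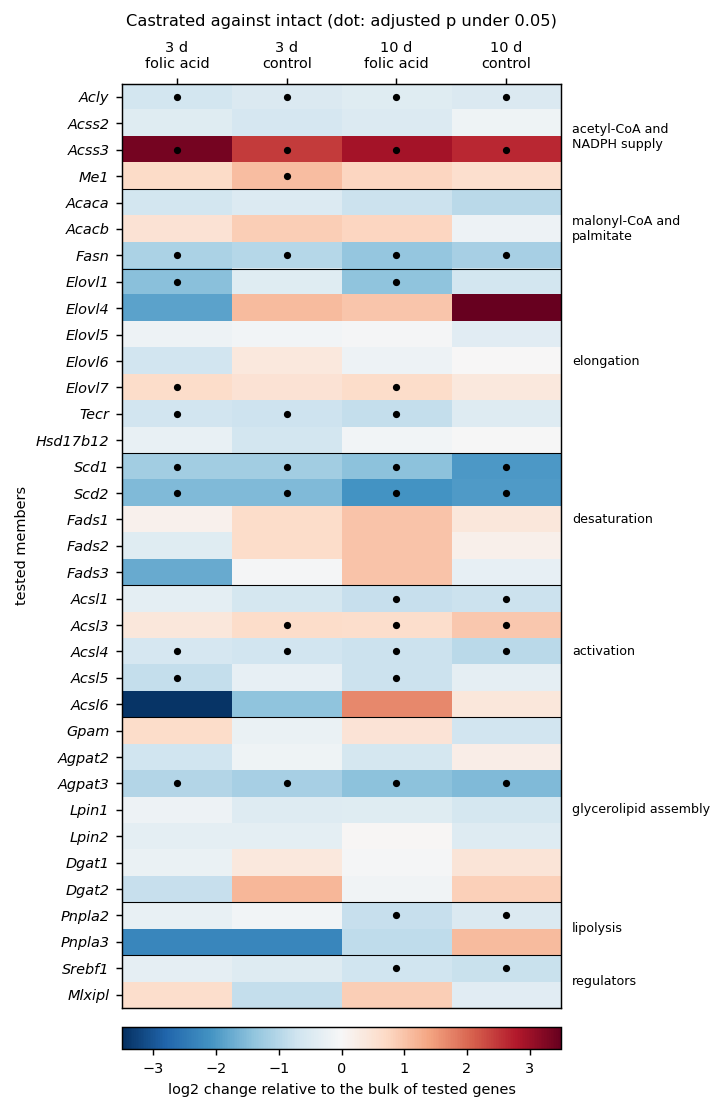
Log2 change of the 35 tested members (rows, by role) in castrated against intact mice, relative to the bulk of tested genes, at 3 d and 10 d on the folic acid and the control diet (columns); a dot marks an adjusted p under 0.05. Scd1, Scd2, Fasn, Agpat3, Acly and Acsl4 are called lower and Acss3 higher in all 4 columns. On library totals alone the log2 changes of Acly and Acsl4 are positive, with Acly called higher only at 10 d and Acsl4 not called. The deep colours of Elovl4, Acsl6 and Pnpla3 without a dot belong to genes with a mean log2 CPM under 1.

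Among the members called lower, Scd2 had the largest fall in every comparison except that at 10 d on control, where Scd1 did. Scd1 and Scd2 insert the first double bond into stearoyl- and palmitoyl-CoA, and lie near each other on chromosome 19 (GRCm38, Scd1 at 44394455 to 44407879 on the minus strand, Scd2 at 44293674 to 44306864 on the plus strand). Scd2 stood at 2227, 2881, 3261 and 2367 CPM in intact mice fed folic acid, at 1005, 898, 780 and 1005 CPM at 3 d and at 752, 726, 517 and 507 CPM at 10 d. Scd2 on the control diet stood at 3463, 3441, 3017 and 2296 CPM in intact mice, at 1092, 880 and 1172 CPM at 3 d and at 1031, 584, 806 and 705 CPM at 10 d. Every castrated library lay below every intact library of its diet, and on folic acid the 10 d libraries also lay below the 3 d ones. The log2 changes of Scd2 were -1.54 ± 0.20 (SE, adjusted p = 1.19e-06) at 3 d and -2.10 ± 0.20 (adjusted p = 2.15e-09) at 10 d on folic acid, and -1.54 ± 0.22 (adjusted p = 5.75e-06) and -1.97 ± 0.20 (adjusted p = 6.11e-09) on the control diet. As a ratio, Scd2 was 4.29-fold lower at 10 d on folic acid and 3.91-fold lower on control.

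Scd1 lay at 393, 284, 264 and 407 CPM in intact mice fed folic acid, at 149, 121, 141 and 164 CPM at 3 d and at 133, 110, 121 and 130 CPM at 10 d. Scd1 on the control diet lay at 472, 444, 439 and 361 CPM in intact mice, at 167, 168 and 215 CPM at 3 d and at 106, 99.4, 117 and 101 CPM at 10 d. Castrated and intact libraries did not overlap on either diet, and on the control diet the 10 d libraries were also all below the 3 d ones. Scd1 fell with log2 changes of -1.23 ± 0.16 (adjusted p = 1.28e-06) and -1.44 ± 0.16 (adjusted p = 3.20e-08) at 3 d and 10 d on folic acid, and of -1.23 ± 0.17 (adjusted p = 5.75e-06) and -2.02 ± 0.16 (adjusted p = 3.71e-11) on control. On library totals alone the change of Scd1 was called only at 10 d on the control diet (log2 change -0.91, adjusted p = 0.000219). Stretches of 31 bases shared with other genes made up 8.18% of Scd1 and 6.81% of Scd2, mostly shared with Scd3, so some reads of these neighbours were divided by estimate. Fads1 and Fads2, which desaturate polyunsaturated chains, and their relative Fads3 were not called in any castration comparison. Fads1 had the smallest adjusted p of the 3, 0.057 at 10 d on folic acid (log2 change 1.01 ± 0.38), where its libraries lay at 10.8, 26.4, 5.32 and 14.8 CPM, against 9.22, 8.16, 2.88 and 8.16 CPM in intact mice.

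**Figure D2:**
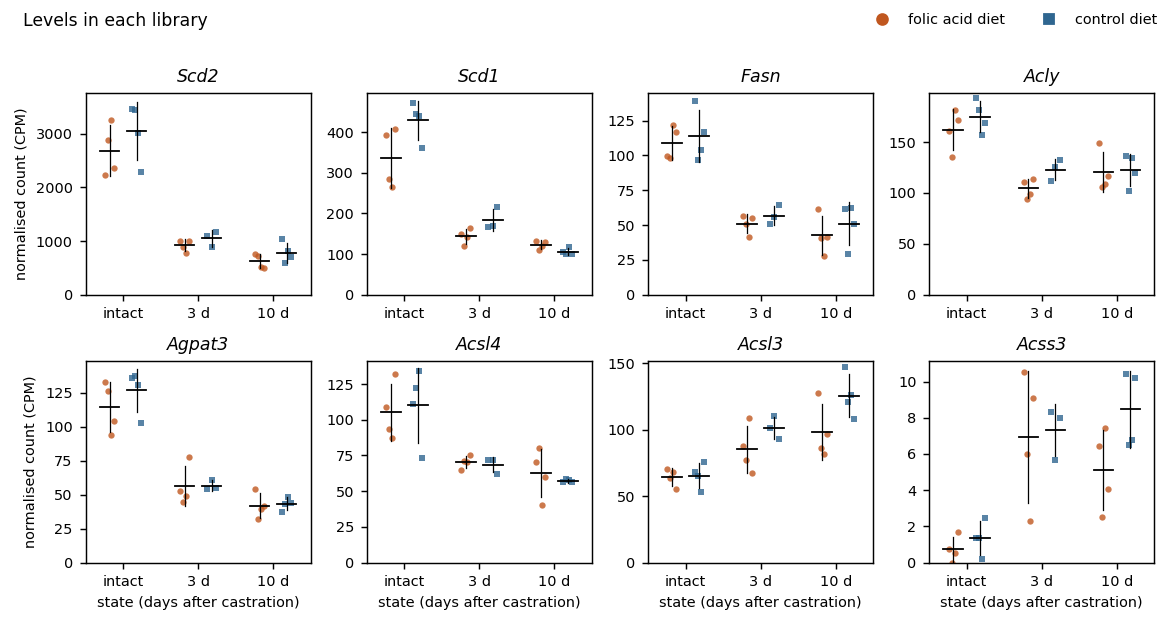
Normalised counts (CPM, linear axes from 0) of 8 members in each library, by state and diet; points are libraries, horizontal lines group means and vertical lines 1 SD. On this scale Scd2, Scd1, Fasn, Agpat3, Acly and Acsl4 are lower in castrated than in intact mice and Acsl3 and Acss3 higher. The Acsl3 change at 3 d on folic acid did not pass the test on this scale. On library totals alone the log2 changes of Acly and Acsl4 are positive, with Acly called higher only at 10 d and Acsl4 not called.

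Per length, Scd2 was the most abundant member by a wide margin. In intact mice Scd2 had 491 ± 87.2 CPM per kb of merged exon on folic acid and 559 ± 99.9 on control (SD, n = 4 each), and Scd1 came next with 68.9 ± 15 and 87.7 ± 9.70. Tecr followed with 37.8 ± 6.34 and 37.1 ± 5.11 CPM per kb and Acly with 30.7 ± 3.79 and 33.2 ± 2.94, and the libraries of these 2 genes overlapped. At 10 d on the control diet Scd2 still led with 143 ± 34.7 CPM per kb, while Scd1 had 21.7 ± 1.67, below Acsl3 at 28.8 ± 3.76 with no overlap (20.3 to 24.0 against 24.8 to 33.8 CPM per kb).

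Among the palmitate synthesis genes, Fasn RNA fell relative to the bulk of tested genes, while neither acetyl-CoA carboxylase was called. The log2 changes of Acaca were negative too, from -0.93 to -0.49. Fasn, the synthase that assembles palmitate (chromosome 11, 120805846 to 120824547, minus strand), had 99.5, 98.0, 122 and 117 CPM in intact mice fed folic acid, 56.8, 50.8, 41.2 and 55.2 CPM at 3 d and 61.4, 40.4, 27.6 and 41.4 CPM at 10 d. Fasn on the control diet had 139, 96.4, 104 and 117 CPM in intact mice, 50.6, 55.5 and 64.3 CPM at 3 d and 61.8, 29.4, 62.1 and 51.0 CPM at 10 d. The lowest intact library, at 96.4 CPM, was above the highest castrated one, at 64.3 CPM, and the 10 d libraries spread over the 3 d range. The log2 changes of Fasn were -1.10 ± 0.21 (adjusted p = 0.000379) and -1.35 ± 0.21 (adjusted p = 1.28e-05) at 3 d and 10 d on folic acid, and -1.01 ± 0.23 (adjusted p = 0.00254) and -1.16 ± 0.21 (adjusted p = 9.27e-05) on control. On library totals alone these became -0.30, -0.10, -0.27 and -0.05 and none was called.

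Acaca, the cytosolic carboxylase that makes malonyl-CoA, had 7.13, 9.77, 24.3 and 20.3 CPM in intact mice fed folic acid, 10.5, 7.90, 8.29 and 12.5 CPM at 3 d and 13.2, 7.40, 5.99 and 9.24 CPM at 10 d. Acaca on the control diet had 14.8, 17.4, 14.4 and 15.8 CPM in intact mice, 6.22, 15 and 12.2 CPM at 3 d and 11, 3.94, 7.86 and 10.0 CPM at 10 d. The intact and castrated libraries on folic acid overlapped, while on control all 10 d libraries were below all intact ones. Its smallest adjusted p was 0.0697, at 10 d on control (log2 change -0.93 ± 0.35), and 33.5% of its 31-base stretches were shared with other genes. Acacb, the mitochondrial-membrane carboxylase, was at 0 in 5 libraries and at most at 6.14 CPM, with no call.

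The supply genes moved apart from each other. Acly, ATP citrate lyase (chromosome 11, 100476353 to 100528000, minus strand), had 161, 135, 181 and 172 CPM in intact mice fed folic acid, 111, 94.2, 99.4 and 114 CPM at 3 d and 149, 106, 109 and 117 CPM at 10 d. Acly on the control diet had 193, 181, 157 and 169 CPM in intact mice, 112, 125 and 132 CPM at 3 d and 136, 102, 134 and 120 CPM at 10 d. Castrated libraries were lower than intact ones without overlap, except at 10 d on folic acid, where the library at 149 CPM lay inside the intact range. Relative to the bulk of tested genes Acly fell, with log2 changes of -0.63 ± 0.14 (adjusted p = 0.00278) and -0.43 ± 0.14 (adjusted p = 0.0298) at 3 d and 10 d on folic acid and -0.51 ± 0.16 (adjusted p = 0.0338) and -0.51 ± 0.14 (adjusted p = 0.0114) on control, but it flipped to 0.16, 0.80, 0.23 and 0.60 on library totals alone. The call at 10 d on folic acid ended without any of intact replicates 1, 3 and 4 or 10 d replicates 2, 3 and 4 (adjusted p up to 0.0961), and the call at 3 d on control without intact replicates 1 or 2 or any 3 d library (adjusted p up to 0.142).

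Acss3 encodes a mitochondrial acyl-CoA synthetase for short-chain acids and had the largest rise among the members called higher. Acss3 had 0.737, 0, 0.509 and 1.67 CPM in intact mice fed folic acid, 10.5, 5.97, 2.28 and 9.07 CPM at 3 d and 6.42, 2.52, 7.42 and 4.07 CPM at 10 d. Acss3 on the control diet had 1.34, 1.33, 0.196 and 2.48 CPM in intact mice, 8.30, 5.68 and 7.96 CPM at 3 d and 10.4, 6.49, 6.75 and 10.2 CPM at 10 d. All castrated libraries were above all intact libraries of their diet, at levels of at most 10.5 CPM that rested on 17 reads in the 4 intact libraries on folic acid and 48 on control. The log2 changes of Acss3 were 3.35 ± 0.68 (adjusted p = 0.000792) and 2.90 ± 0.67 (adjusted p = 0.00193) at 3 d and 10 d on folic acid, and 2.44 ± 0.64 (adjusted p = 0.0106) and 2.65 ± 0.62 (adjusted p = 0.00221) on control. In GENCODE, Acss3 shares 33.6% of its 31-base stretches with Ppfia2, which had at most 0.974 CPM in any library. The cytosolic acetyl-CoA synthetase Acss2 was not called in any of the 4 comparisons, with log2 changes from -0.60 to -0.16 and a smallest adjusted p of 0.446.

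Me1, the cytosolic malic enzyme that yields NADPH, had 14.7, 5.86, 5.77 and 12.1 CPM in intact mice fed folic acid, 15, 13.3, 16.8 and 16.6 CPM at 3 d and 15.6, 16.3, 16 and 16.3 CPM at 10 d. Me1 on the control diet had 8.55, 15.6, 11.1 and 6.85 CPM in intact mice, 15.7, 19.9 and 31.4 CPM at 3 d and 21.5, 22.3, 11.4 and 8.91 CPM at 10 d. It was called only at 3 d on control, where the lowest castrated library lay at 15.7 CPM, against 15.6 CPM in the highest intact library. That log2 change was 1.09 ± 0.34 (adjusted p = 0.0355), and the call ended without intact replicate 1, 3 or 4 or 3 d replicate 3 or 4 (adjusted p up to 0.254). Of the 31-base stretches of Me1, 28.6% are shared with Gm7049.

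Fasn and Acly were the palmitate and acetyl-CoA genes called lower in all 4 comparisons on the TMM scale, and their promoters are shown for that reason. On library totals alone the log2 changes of Acly turned positive, called higher only at 10 d, and those of Fasn stayed negative without a call. Of the members called lower in all 4 comparisons, 4 have a promoter in the table used. Those of the others, Acsl4 and Agpat3, held no match to CCAAT and are not shown. Each runs from 250 bases before to 50 bases after the transcript start, in the direction of the gene, from RefSeq on GRCm38.p6, and capitals mark matches to CCAAT on either strand (ATTGG on the other strand).
Fasn, chr11:120824498-120824797, minus strand: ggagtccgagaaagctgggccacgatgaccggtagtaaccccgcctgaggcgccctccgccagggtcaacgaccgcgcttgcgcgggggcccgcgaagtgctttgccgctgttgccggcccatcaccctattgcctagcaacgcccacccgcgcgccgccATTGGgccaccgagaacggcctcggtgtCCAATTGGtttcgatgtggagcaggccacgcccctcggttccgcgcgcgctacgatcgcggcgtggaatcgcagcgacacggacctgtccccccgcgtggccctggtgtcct
Acly, chr11:100527951-100528250, minus strand: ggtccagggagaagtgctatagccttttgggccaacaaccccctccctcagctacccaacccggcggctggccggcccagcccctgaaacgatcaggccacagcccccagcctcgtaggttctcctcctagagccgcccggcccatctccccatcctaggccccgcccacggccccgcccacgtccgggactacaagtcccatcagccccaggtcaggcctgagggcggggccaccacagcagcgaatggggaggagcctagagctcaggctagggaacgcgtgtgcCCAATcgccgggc

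Counting the first transcribed base as 0, the Fasn window holds CCAAT matches that begin at -90, -62 and -59, of which the last 2 overlap, and the Acly window holds 1 that begins at 37. The Acly window also holds 4 matches to the GC box GGGCGG, in either direction, at -117, -88, -76 and -27, and the Fasn window holds none. CCAAT was found in 37.4% of the 32851 RefSeq promoters of this length and GGGCGG in 35.7%. Among genes, 21 of the 31 members with a promoter in the table held CCAAT in at least 1 promoter, where 42.6% of tested genes did, and 22 held GGGCGG, where 67.6% of tested genes did. The classical sterol element TCACNCCAC was found in 2 of 31 members, Acsl1 and Mlxipl, where 1.44% of tested genes held it, and the E-box CACGTG in 4 (12.9%), where 11.6% of tested genes held it. All promoters held them in 1.24% and 7.15% of cases, both searched on both strands. Scd1, Scd2 and Acss3 have no promoter in that table.

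Of the 7 tested elongation genes, 3 were called at each time on folic acid, Elovl1 and Tecr lower and Elovl7 higher, and on control 1 was called at 3 d (Tecr) and 0 at 10 d. On library totals alone the log2 changes of Tecr turn positive, called higher only at 10 d on control, and the Elovl1 calls end. Elovl1, which elongates very long saturated chains, had 22.1, 24.7, 22.7 and 31.2 CPM in intact mice fed folic acid, 8.01, 8.09, 5.77 and 14.8 CPM at 3 d and 8.85, 11.2, 9.03 and 9.07 CPM at 10 d. Elovl1 on the control diet had 29.7, 21.7, 18.5 and 19.0 CPM in intact mice, 15.9, 13.8 and 20 CPM at 3 d and 14.1, 13.1, 13.9 and 15.9 CPM at 10 d. On folic acid no castrated library reached the intact range, while on control the 3 d libraries overlapped it and the 10 d libraries did not. Elovl1 fell with log2 changes of -1.45 ± 0.25 (adjusted p = 0.000125) and -1.40 ± 0.25 (adjusted p = 9.48e-05) at 3 d and 10 d on folic acid. Both calls ended on library totals alone, with log2 changes of -0.65 (adjusted p = 0.0763) and -0.16 (adjusted p = 0.621). Its changes on control, -0.42 ± 0.26 and -0.64 ± 0.24, did not pass (adjusted p = 0.367 and 0.072), but the difference between diets did not pass either, with interactions of -1.03 ± 0.36 at 3 d (adjusted p = 0.998) and -0.76 ± 0.35 at 10 d (adjusted p = 0.869).

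Elovl7, which elongates long saturated chains, had 24.7, 23.6, 19.5 and 25.1 CPM in intact mice fed folic acid, 35.4, 25.2, 43.3 and 42.4 CPM at 3 d and 36.1, 40.8, 36.6 and 30.6 CPM at 10 d. Elovl7 on the control diet had 29.5, 28.3, 32.2 and 26.5 CPM in intact mice, 35.8, 45.2 and 43.2 CPM at 3 d and 38.3, 44.7, 30.9 and 36.4 CPM at 10 d. On folic acid the castrated libraries lay above the intact ones (25.2 CPM in the lowest castrated library, against 25.1 CPM in the highest intact one), and on control the 10 d libraries overlapped the intact range. The log2 changes on folic acid were 0.65 ± 0.18 (adjusted p = 0.0134) at 3 d and 0.63 ± 0.18 (adjusted p = 0.011) at 10 d. The call at 3 d ended without intact replicate 3 or 3 d replicate 3 or 4 (adjusted p up to 0.0547). Without the 4 libraries that stood apart in stromal or muscle transcripts both calls ended, with log2 changes of 0.58 and 0.45.

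Tecr, the enoyl-CoA reductase that closes each elongation cycle, had 69.8, 93.2, 71.8 and 96.3 CPM in intact mice fed folic acid, 64.0, 54.9, 42.3 and 48.5 CPM at 3 d and 54.1, 43.5, 42.6 and 44.3 CPM at 10 d. Tecr on the control diet had 89.1, 92.2, 68.9 and 74.8 CPM in intact mice, 52.7, 31.6 and 63.6 CPM at 3 d and 61.1, 65.7, 53.6 and 56.7 CPM at 10 d. Every castrated library was below every intact library of its diet on the TMM scale. Relative to the bulk of tested genes Tecr fell, with log2 changes of -0.66 ± 0.18 (adjusted p = 0.012) and -0.84 ± 0.18 (adjusted p = 0.000842) at 3 d and 10 d on folic acid and -0.72 ± 0.20 (adjusted p = 0.0145) at 3 d on control. On library totals alone these became 0.12, 0.39 and 0.03 and none was called (adjusted p = 0.658, 0.103 and 0.94). The change at 10 d on control, -0.45 ± 0.18, did not pass on the TMM scale (adjusted p = 0.0797). On library totals alone it was 0.64 and called higher (adjusted p = 0.00976). The 3 d calls ended without 3 d replicate 3 on folic acid (adjusted p = 0.054), and without intact replicate 2 or 3 d replicate 3 on control (adjusted p up to 0.185). The elongases Elovl4, Elovl5 and Elovl6 and the ketoacyl-CoA reductase Hsd17b12 were not called in any castration comparison, and Elovl5 had log2 changes between -0.39 and -0.04.

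The acyl-CoA synthetases, which activate long-chain fatty acids for use, went in opposite directions on the TMM scale. On library totals alone Acsl3 was called higher in all 4 comparisons, with log2 changes from 1.18 to 2.05, and Acsl4 was not called in any. Acsl4, known for its preference for arachidonic acid, had 109, 93.2, 87.2 and 132 CPM in intact mice fed folic acid, 64.8, 71.0, 70.3 and 75.4 CPM at 3 d and 70.4, 80.3, 40.6 and 59.6 CPM at 10 d. Acsl4 on the control diet had 111, 122, 134 and 73.3 CPM in intact mice, 71.8, 71.7 and 62.3 CPM at 3 d and 56.1, 58.8, 57.7 and 56.1 CPM at 10 d. The castrated libraries lay below the intact ones throughout, on control only just at 3 d because intact replicate 4 was at 73.3 CPM. Relative to the bulk of tested genes Acsl4 fell, with log2 changes of -0.58 ± 0.18 (adjusted p = 0.027) and -0.75 ± 0.18 (adjusted p = 0.00273) at 3 d and 10 d on folic acid and -0.68 ± 0.20 (adjusted p = 0.022) and -0.94 ± 0.18 (adjusted p = 0.000259) on control. On library totals alone these became 0.17, 0.49, 0.06 and 0.16 and none was called (adjusted p = 0.549, 0.0515, 0.866 and 0.529). Both 3 d calls depended on single libraries: on folic acid the call ended without intact replicate 1 or 4 or 3 d replicate 1, 2 or 3 (adjusted p up to 0.0956), and on control without intact replicate 2 or 3 or any 3 d library (adjusted p up to 0.103).

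Acsl3, which is known from lipid droplets and the endoplasmic reticulum, had 70.3, 63.8, 68.2 and 55.2 CPM in intact mice fed folic acid, 87.5, 77.3, 109 and 67.5 CPM at 3 d and 128, 86.5, 81.6 and 96.7 CPM at 10 d. Acsl3 on the control diet had 67.9, 65.4, 52.9 and 75.4 CPM in intact mice, 101, 110 and 93.1 CPM at 3 d and 147, 121, 126 and 108 CPM at 10 d. All castrated libraries were above the intact ones of their diet except 1 at 3 d on folic acid, which lay at 67.5 CPM. Acsl3 rose by 0.61 ± 0.16 (log2 change, adjusted p = 0.00718) at 10 d on folic acid, by 0.63 ± 0.17 (adjusted p = 0.0164) at 3 d on control and by 0.94 ± 0.16 (adjusted p = 7.65e-05) at 10 d on control. At 3 d on folic acid the change was 0.41 ± 0.16 (adjusted p = 0.101). The call at 10 d on folic acid ended without 10 d replicate 1 (adjusted p = 0.0511), and that at 3 d on control without intact replicate 3 or 3 d replicate 3 (adjusted p up to 0.0761).

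Within a library, the ratio of Acsl3 to Acsl4 reads does not depend on the scale between libraries. The ratio was 0.632 ± 0.154 in intact mice fed folic acid, 1.22 ± 0.289 at 3 d and 1.63 ± 0.402 at 10 d (SD, n = 4 each). On the control diet it was 0.643 ± 0.273 in intact mice (n = 4), 1.48 ± 0.0604 at 3 d (n = 3) and 2.20 ± 0.304 at 10 d (n = 4). Intact ratios reached 0.782 on folic acid and 1.03 on control, while castrated ratios began at 0.896 on folic acid and 1.41 on control, so that no castrated library of a diet overlapped its intact libraries. The pair was chosen after its values were seen and the ratio was not tested. The ratio of Scd2 to Scd1 overlapped between all states on folic acid, at 5.67 to 12.4 in intact mice, 5.55 to 7.40 at 3 d and 3.89 to 6.58 at 10 d.

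**Figure D3:**
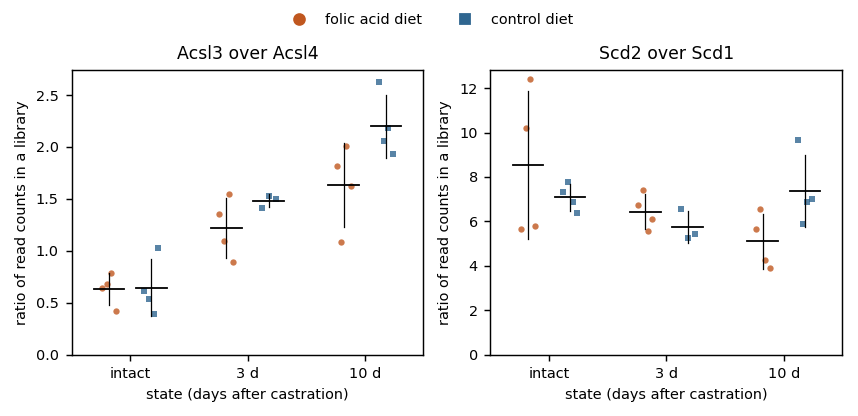
Ratio of read counts of 2 genes within each library (linear axis from 0), by state and diet, with group means and 1 SD. Acsl3 over Acsl4 is at most 1.03 in intact mice and reaches 2.63 at 10 d on the control diet, and Scd2 over Scd1 shows no such separation.

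Acsl1 and Acsl5 fell in part of the comparisons. Acsl1, a major synthetase of fat-handling tissues, had 53.3, 52.3, 66.0 and 64.0 CPM in intact mice fed folic acid, 43.2, 45.3, 52.5 and 44.6 CPM at 3 d and 32.9, 24.5, 46.7 and 29.3 CPM at 10 d. Acsl1 on the control diet had 52.0, 74.5, 69.4 and 44.6 CPM in intact mice, 33.3, 38.6 and 46.1 CPM at 3 d and 35.1, 23.9, 45.8 and 38.8 CPM at 10 d. The 10 d libraries were below the intact ones on folic acid and overlapped them by 1 library on control. Relative to the bulk of tested genes Acsl1 fell at 10 d, with log2 changes of -0.82 ± 0.20 (adjusted p = 0.0036) on folic acid and -0.74 ± 0.20 (adjusted p = 0.00915) on control. On library totals alone these became 0.39 and 0.38 and neither was called (adjusted p = 0.103 and 0.121). The control call ended without intact replicate 2 (adjusted p = 0.0507), a library that also stood high in adipocyte and skeletal muscle transcripts.

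Acsl5, a synthetase known from intestine, had 128, 117, 156 and 136 CPM in intact mice fed folic acid, 80.8, 72.5, 63.0 and 85.9 CPM at 3 d and 96.6, 61.1, 89.8 and 74.7 CPM at 10 d. Acsl5 on the control diet had 113, 101, 93 and 108 CPM in intact mice, 95.1, 78.7 and 80.7 CPM at 3 d and 87.7, 92.8, 77.4 and 77.6 CPM at 10 d. On folic acid the castrated libraries stopped well below the intact ones, and on control the 3 d libraries overlapped the intact ones while the highest 10 d library lay at 92.8 CPM, just under the lowest intact one. Acsl5 fell on folic acid, with log2 changes of -0.83 ± 0.15 (adjusted p = 0.000241) at 3 d and -0.74 ± 0.15 (adjusted p = 0.000482) at 10 d, but on library totals alone these became -0.03 (adjusted p = 0.903) and 0.49. On control the changes were -0.29 ± 0.16 (adjusted p = 0.297) and -0.31 ± 0.15 (adjusted p = 0.172), and the interactions with diet were -0.54 ± 0.22 at 3 d and -0.43 ± 0.21 at 10 d, neither of which passed (adjusted p = 0.998 and 0.869). Acsl6 was at 0 in 9 libraries and was not called.

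Of the 7 glycerolipid assembly genes, only Agpat3 was called, and it was called lower in all 4 comparisons. Agpat3 encodes an acyltransferase that turns lysophosphatidic acid into phosphatidic acid (chromosome 10, 78269178 to 78352489, minus strand). Agpat3 had 133, 126, 93.7 and 104 CPM in intact mice fed folic acid, 52.8, 44.7, 49.2 and 77.5 CPM at 3 d and 54.3, 32.3, 39.7 and 41.4 CPM at 10 d. Agpat3 on the control diet had 136, 137, 131 and 103 CPM in intact mice, 54.0, 61.1 and 54.6 CPM at 3 d and 37.2, 43.4, 48.6 and 43.7 CPM at 10 d. The highest castrated library lay at 77.5 CPM and the lowest intact one at 93.7 CPM. The log2 changes of Agpat3 were -1.02 ± 0.17 (adjusted p = 0.000105) and -1.44 ± 0.18 (adjusted p = 2.91e-07) at 3 d and 10 d on folic acid, and -1.16 ± 0.19 (adjusted p = 6.31e-05) and -1.55 ± 0.18 (adjusted p = 6.91e-08) on control. On library totals alone they were -0.21, -0.21, -0.43 and -0.44 and none was called.

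The acyltransferase of the first committed step, Gpam, was not called, with log2 changes from -0.68 to 0.64 and a smallest adjusted p of 0.178. Agpat2, which acts at the same step as Agpat3, ran from -0.69 to 0.23 (smallest adjusted p = 0.319). The phosphatidate phosphatases Lpin1 and Lpin2 ran from -0.62 to -0.18 and from -0.46 to 0.03. Dgat1 and Dgat2, which add the last acyl chain of triglyceride, ran from -0.22 to 0.45 and from -0.82 to 1.15, and Dgat2 had at most 6.85 CPM with a median SE of 0.67. None of these genes was called, which does not show that they stayed level.

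Among the lipases and regulators, Pnpla2 and Srebf1 were called lower at 10 d on both diets. Pnpla2, adipose triglyceride lipase, had 58.3, 69.8, 51.1 and 47.3 CPM in intact mice fed folic acid, 51.5, 53.9, 39.7 and 43.1 CPM at 3 d and 36.6, 32.1, 25.6 and 35.7 CPM at 10 d. Pnpla2 on the control diet had 52.0, 52.2, 52.2 and 53.2 CPM in intact mice, 57.0, 38.6 and 50.8 CPM at 3 d and 38.6, 25.9, 40.8 and 41.9 CPM at 10 d. The 3 d libraries overlapped the intact ones on both diets and the 10 d libraries were below them. Pnpla2 fell at 10 d relative to the bulk of tested genes, with log2 changes of -0.80 ± 0.18 (adjusted p = 0.00127) on folic acid and -0.51 ± 0.18 (adjusted p = 0.0445) on control, and flipped to 0.46 and 0.60 on library totals alone. The control call ended without any intact library or 10 d replicate 1 or 2 (adjusted p up to 0.17). Pnpla3 was at 0 in 6 libraries and was not called.

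Srebf1, which encodes the sterol regulatory element-binding protein that drives lipogenic genes, had 54.8, 90.1, 82.8 and 49.6 CPM in intact mice fed folic acid, 74.7, 50.6, 44.8 and 52.4 CPM at 3 d and 60.0, 33.4, 42.3 and 36.1 CPM at 10 d. Srebf1 on the control diet had 96.9, 74.0, 75.1 and 63.5 CPM in intact mice, 54.3, 55.7 and 59.4 CPM at 3 d and 56.4, 34.9, 45.1 and 43.2 CPM at 10 d. On control all castrated libraries were below all intact ones, and on folic acid the groups overlapped at both times. At 10 d Srebf1 fell relative to the bulk of tested genes, with log2 changes of -0.69 ± 0.21 (adjusted p = 0.0149) on folic acid and -0.79 ± 0.21 (adjusted p = 0.00683) on control. On library totals alone these became 0.58, called higher (adjusted p = 0.0193), and 0.32, not called (adjusted p = 0.187). On the TMM scale the folic acid call ended without intact replicate 2 or 3 or 10 d replicate 2 or 4 (adjusted p up to 0.0865). At 3 d the changes were -0.32 ± 0.21 and -0.45 ± 0.22 (adjusted p = 0.342 and 0.222). Mlxipl, the carbohydrate-response regulator of lipogenesis, had at most 2.11 CPM and was not called.

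The calls of the 2 diets came from separate libraries and shared most members. At 3 d, 8 members were called on both diets, 72.7% of the 11 on folic acid and 80.0% of the 10 on control, and at 10 d 11 were, 73.3% of the 15 on folic acid and 100% of the 11 on control. Every shared member had the same direction on both. Over all tested genes, those called on both diets made up 47.4% of the calls on folic acid and 68.0% of those on control at 3 d, and 53.5% and 70.7% at 10 d. The difference from the members was not tested. The 3 d and 10 d comparisons of a diet share its intact libraries, so they are not independent of each other.

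Between 3 d and 10 d few genes of any kind were called. On folic acid 0 of 35 members were called where 0.634% of all tested genes were called, with 6 at an unadjusted p under 0.05 (edgeR) and 0 by DESeq2. The smallest p among them were those of Pnpla2, with a log2 change of -0.53 ± 0.18 (adjusted p = 0.181), and Scd2, with -0.56 ± 0.19 (adjusted p = 0.199), and in both the 10 d and 3 d libraries did not overlap. On control 1 was called, Scd1, where 0.35% of all genes were called. Scd1 had 106, 99.4, 117 and 101 CPM at 10 d, against 167, 168 and 215 CPM at 3 d, and fell with a log2 change of -0.79 ± 0.17 (adjusted p = 0.0185). That call ended without 3 d replicate 4 or 10 d replicate 1, 2 or 4 (adjusted p up to 0.196), and on folic acid the change of Scd1 was -0.22 ± 0.15 (adjusted p = 0.617). The median log2 change of the members was 0.08 on folic acid and -0.17 on control, where the medians of all genes were 0.04 and 0.02. On library totals alone 5 members were called higher and 0 lower on folic acid, and 2 and 0 on control. The median tested gene also shifted upward on that scale, by log2 values of 0.5 on folic acid and 0.39 on control.

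In the same comparison 3 of 20 cholesterol synthesis genes were called higher on folic acid and 4 on control, with median log2 changes of 0.26 and 0.66, and with library totals as the only scale 7 and 10 were called higher. Among those called on control were Idi1 (1.91 ± 0.33), Cyp51 (1.61 ± 0.26) and Sqle (1.55 ± 0.32), with adjusted p from 0.00258 to 0.0262, and Idi1 and Cyp51 were also called on folic acid. These genes were named after their values were seen. Insig1, the retention protein that holds sterol regulatory element-binding proteins in the endoplasmic reticulum, was higher at 10 d than at 3 d by 0.93 ± 0.21 (log2 change, adjusted p = 0.0292) on folic acid and 1.41 ± 0.24 (adjusted p = 0.00267) on control. Srebf1 was not called, at -0.37 ± 0.21 and -0.33 ± 0.22 (adjusted p = 0.493 and 0.647). The difference between the 2 groups of genes was not tested.

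**Figure D4:**
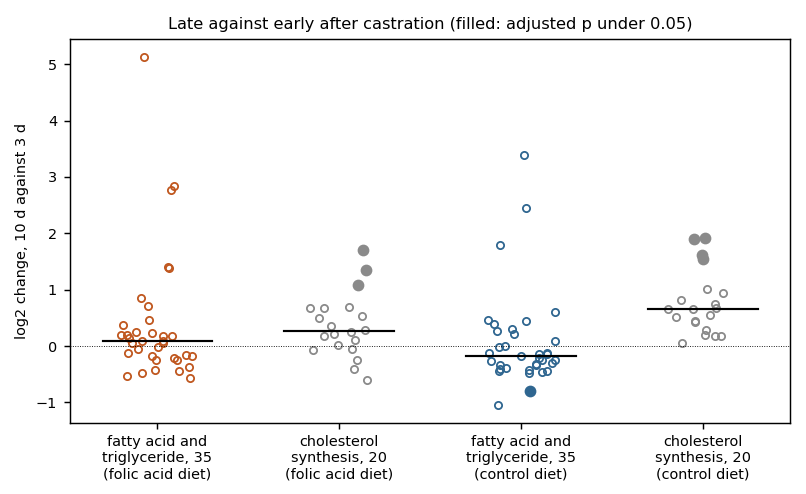
Log2 change at 10 d against 3 d after castration of the 35 tested members and of 20 cholesterol synthesis genes, on the folic acid and the control diet; circles are genes, filled where the adjusted p is under 0.05, and horizontal lines are medians. The members' medians lie at 0.08 and -0.17 with Scd1 on control as the only filled member, and the cholesterol medians lie at 0.26 and 0.66. The highest open circles of the members are genes with a mean log2 CPM under 1, such as Acsl6, Elovl4 and Pnpla3.

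No member passed the test for diet. With folic acid set against control, 0 of 35 members were called in intact mice, at 3 d, at 10 d and for the mean over the 3 states, where 0.0522%, 0.0671%, 0.119% and 0.35% of all tested genes were called. At an unadjusted p under 0.05 there were 3, 2, 3 and 3 members (edgeR), and DESeq2 called 0 in each. For the mean over the states, the 23 members whose mean log2 CPM reached 3 had log2 changes between -0.42 (Elovl1) and 0.27 (Lpin2), with a median SE of 0.12, and the 95% interval of all 23 lay within 1 log2 unit of no change. Elovl1 had the smallest p, with a log2 change of -0.42 ± 0.14 (unadjusted p = 0.00719, adjusted p = 0.388), and at 3 d its 8.01, 8.09, 5.77 and 14.8 CPM on folic acid stood against 15.9, 13.8 and 20 CPM on control, with 1 library in the overlap. Scd2 differed by -0.23 ± 0.11 (adjusted p = 0.71) and Acsl3 by -0.21 ± 0.10 (adjusted p = 0.68).

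In intact mice the smallest p among the members was that of Gpam, at 36.1, 12.0, 13.2 and 37.9 CPM on folic acid and 58.3, 50.8, 51.5 and 29.5 CPM on control. The groups overlapped, and the log2 change of -0.94 ± 0.34 did not pass (adjusted p = 0.706). No difference between the diets in the effect of castration passed the test: 0 of 35 interactions were called at 3 d, where 0% of all tested genes were called, and 0 at 10 d, where 0.0149% were. Unadjusted, 2 and 3 members had a p under 0.05 (edgeR), and DESeq2 called 0. At 10 d the interactions of Scd1 (0.57 ± 0.22) and Gpam (1.17 ± 0.47) came closest besides Elovl1 (adjusted p = 0.869 for each). The 95% interval of the interaction lay within 1 log2 unit for 17 of 23 members at 3 d and 16 of 23 at 10 d, and reached beyond it for the others.

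**Figure D5:**
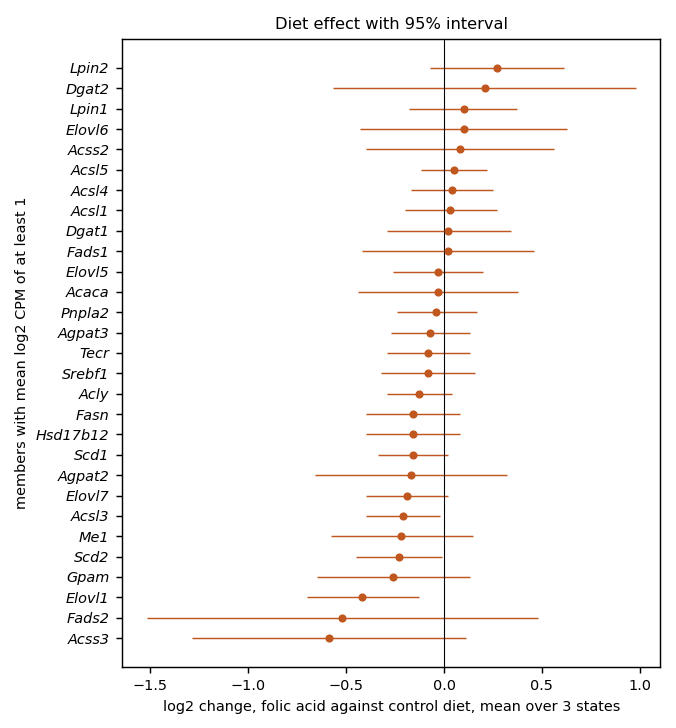
Log2 change of folic acid against control diet, as the mean over the 3 states, with 95% intervals, for the 29 tested members whose mean log2 CPM reached 1. No member passed the adjusted test, and the widest intervals belong to the low genes Fads2, Acss3 and Dgat2.

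Neighbouring pathways were described by lists chosen with results of these data known, with counts relative to the bulk of tested genes unless another scale is named. On library totals alone the median tested gene rises as well, so the counts called higher on that scale include this shift. Cholesterol synthesis had 17 of 20 genes lower and 0 higher at 3 d and at 10 d on folic acid (median log2 changes -1.62 and -1.19), and 13 and 7 of 20 lower with 0 higher at 3 d and 10 d on control (medians -1.21 and -0.44). On library totals alone cholesterol synthesis still had 12 genes lower and 0 higher on folic acid and 8 and 0 on control in 3 d mice. In 10 d mice on that scale it did not go one way on folic acid, with 3 lower and 4 higher (median log2 change 0.06). On control at 10 d its direction flipped, with 0 lower and 11 higher (median 0.67). Of 9 genes that control sterol regulatory element-binding proteins and the liver X receptors, 3 were lower at both times on folic acid, and 3 at 3 d and 1 at 10 d on control, while on library totals alone 3 to 6 were higher in each comparison. Insig1 alone was lower on that scale, at 3 d on both diets (log2 changes -1.71 and -1.20, adjusted p = 3.62e-06 and 0.000738). Scap, the escort of these proteins, was lower in all 4 comparisons, at 10 d by log2 changes of -1.47 ± 0.22 on folic acid (adjusted p = 8.44e-06) and -1.22 ± 0.22 on control (adjusted p = 9.62e-05), but on library totals alone its log2 changes lay between -0.24 and 0.03 and none was called.

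Of 6 tested lipid droplet genes, 2 were lower and 0 higher in each comparison, except 1 lower at 3 d on control. Bscl2, which encodes the droplet assembly protein seipin, was lower in all 4, by log2 changes of -1.45 ± 0.21 (adjusted p = 4.88e-06) and -1.05 ± 0.21 (adjusted p = 0.000383) at 10 d on folic acid and control, but on library totals alone its log2 changes lay between -0.34 and 0.06 and 0 lipid droplet genes were lower and 1 to 5 higher in each comparison. Fatty acid oxidation did not go one way, with 3 of 20 genes lower and 2 higher at 3 d and 4 lower and 3 higher at 10 d on folic acid, and 1 lower and 3 higher at 3 d and 2 lower and 5 higher at 10 d on control. Of the 20, 13 to 16 were higher and 0 lower in each comparison on library totals alone. Acaa2, a mitochondrial thiolase, was lower in all 4 comparisons (log2 change -1.46 ± 0.18 at 10 d on folic acid), a call that no comparison kept on library totals alone, and the dehydrogenases Acadm and Hadh were higher in all 4 on either scale (0.51 ± 0.16 and 0.83 ± 0.16 at 10 d on folic acid). Of 17 other tested glycerolipid and elongation genes, 2 and 3 were lower at 3 d and 10 d on folic acid and 2 and 1 on control, with 0 higher. Of all tested genes, 8.27%, 11.7%, 6.15% and 9.45% were called lower in these comparisons, and 6.07%, 10.2%, 3.83% and 7.15% higher. The counts of the 17 genes turned to 0 lower and 4 to 13 higher on library totals alone. Mid1ip1, which activates acetyl-CoA carboxylase as a partner of the protein of Thrsp, was lower at 3 d on both diets, by log2 changes of -1.39 ± 0.25 (adjusted p = 0.000226) on folic acid and -1.18 ± 0.27 (adjusted p = 0.00346) on control, and by -0.56 and -0.45, not called, on library totals alone.

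Several members are also expressed by fat cells, so fat markers were measured in the same libraries. The 10 adipocyte markers summed to 19.7 to 53.6 CPM in intact mice fed folic acid, 27.6 to 40.7 CPM at 3 d and 20.3 to 169 CPM at 10 d. On the control diet the sums were 30.4 to 189 CPM in intact mice, 27.4 to 36.9 CPM at 3 d and 26.1 to 53.3 CPM at 10 d. The highest sums belonged to folic acid 10 d replicate 4 and control intact replicate 2, and 0 of 5 tested markers were called in any of the 4 comparisons. The defining markers were at or near 0: Adipoq had at most 1.19 CPM and Plin1 at most 0.932 CPM in any library, and Ucp1 of brown fat had none. Without the 2 libraries high in these markers, a comparison chosen after the data were seen, 11 and 7 members were called at 3 d and 13 and 9 at 10 d, on folic acid and control, and no called member turned its direction. The share of all tested genes called in that fit is not given here.

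Markers of epithelial and other cell types also differed between castrated and intact mice. The 8 secretory epithelium markers, most of whose reads are Sbp, summed to 32199 to 128622 CPM at 10 d on folic acid, against 679895 to 1108399 CPM in intact mice. On control they summed to 44367 to 70539 CPM at 10 d, against 731229 to 820055 CPM. Skeletal muscle markers summed to 0.856 to 57.0 CPM at 10 d on folic acid, against 46.2 to 149 CPM in intact mice. On control the sums were 5.28 to 10.2 CPM, against 68.5 to 3863 CPM. Fibroblast markers summed to 281 to 592 CPM at 10 d on folic acid, against 161 to 733 CPM in intact mice. On control they summed to 243 to 504 CPM, against 508 to 872 CPM. The muscle and fibroblast sums overlapped on folic acid and did not on control. The fibroblast markers did not go one way. Dcn was called higher at 3 d on control and at 10 d on both diets. Col1a1 was called lower at 10 d on both diets and Col1a2 at 10 d on control. The 7 macrophage markers summed to 50.6 to 82.5 CPM at 3 d on folic acid, against 21.0 to 33.8 CPM in intact mice, and to 92.8 to 155 CPM at 3 d on control, against 29.0 to 55.7 CPM. Of these 7, 3 and 4 were called higher at 3 d and 5 and 3 at 10 d, on folic acid and control. Of all tested genes, 6.07% and 3.83% were called higher at 3 d and 10.2% and 7.15% at 10 d. Of the epithelial markers, Krt8, Krt18 and Cdh1 were not called in any of the 4 comparisons and Epcam was higher at 10 d on control (log2 change 0.58 ± 0.14, adjusted p = 0.00415). Smooth muscle markers summed to 462 to 2659 CPM at 10 d on folic acid, against 333 to 1917 CPM in intact mice, with 0 of 5 called in any comparison. The urothelium marker Upk1b was called higher in all 4 comparisons. Without the 4 libraries that stood apart in stromal or muscle transcripts, also chosen after the data were seen, 10 and 9 members were called at 3 d and 11 and 10 at 10 d, on folic acid and control. The share of all tested genes called without them is not given here. The part of these cell types in the changes of the members was not tested.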

How the data were processed

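The data are RNA sequencing of 23 ventral prostate libraries in 6 groups. Oligo-dT beads captured the mRNA, per the labels' protocols. The authors deposited 1 table of expected counts, the read numbers that RSEM assigns to each gene by estimate, not scaled between libraries. Alignment tools in the submitters' processing notes are RSEM 1.2.3 and Bowtie 0.12.9, with bcl2fastq 2.17.1.14 and the build mm10. The sources used here give no annotation, strand setting or read length. Of the values 19.5% were not whole and were rounded. The table had 1 column without a sample label, which was not used.

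Genes were filtered with filterByExpr (minimum count 10, minimum total 15), scaled with TMM and fitted with the robust quasi-likelihood model of edgeR 4.0.16 in R 4.3.3, with 1 mean per group over all 23 libraries. It tested 12 comparisons, two-sided, with Benjamini-Hochberg adjustment over 13412 genes (called: under 0.05). SE is the log2 change divided by the square root of F, and 95% intervals are normal. Biological coefficient of variation was 0.364. p-values measure the spread between mice of unknown litter. The code was tested on simulated counts for 10 d against intact on control. It recovered 93% of log2 changes of 2 and 22% of log2 changes of 1, so changes of that smaller size can go uncalled. Alternatives were DESeq2 1.42.0, other scalings, no filter, a replicate block, only the groups compared and leaving out libraries.

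The members, lists, markers and alternatives were chosen with earlier results of these data known. Members called in a castration comparison whose mean log2 CPM reached 1 are given in every library, and up to 4 genes per neighbouring list were named by p at 10 d on control. Acaca, Fads1, Gpam, the marker genes and some list genes were named beyond that after their values were seen. Positions and shared 31-base stretches are from GENCODE M21 (GRCm38) and promoters from RefSeq, with 31 of 38 members matched. Where a gene shares reads with a relative, RSEM divided them by estimate.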

Additional observations from a re-analysis of the deposited data

Results flagged for a closer look

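Within groups of 4 libraries, 80 sets of values of 16 members were examined for a library whose gap to the nearest of the others was large against the range of the group, and 2 stood apart, where chance gives about 1 in 20. In folic acid mice at 10 d, Elovl1 had 11.2 CPM in replicate 2, against 8.85 to 9.07 CPM in the other libraries, and this library also had the highest smooth muscle and fibroblast markers of its group. In the same group Tecr had 54.1 CPM in replicate 1, against 42.6 to 44.3 CPM in the others. Both values lay below all intact libraries of that diet. Their causes were not tested.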

How the results depend on the processing

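Across the 4 castration and the late comparisons there were 48 called values. None changed its direction under DESeq2, DESeq2 size factors, no filter, only the groups compared, the replicate block, the left-out libraries or library totals without Sbp. Between 0 and 10 of the 48 lost the call in each of these settings, apart from the fits that left out 1 library at a time. Over all of those fits together, a call was kept 323 times and lost 50 times. Leaving out each library gave 8 to 11 and 5 to 10 called members at 3 d on folic acid and control, 13 to 16 and 9 to 12 at 10 d, and 0 to 1 at 10 d against 3 d on control. Scd1, Scd2, Fasn, Agpat3 and Acss3 kept their castration calls in all of these. With only the groups compared, 0 members were called at 10 d against 3 d on control. The cause of these changes was not tested. Shares of all tested genes called are not given for the refits in this section.

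With library totals alone, 18 members were called at 10 d against intact on control, 5 at 10 d against 3 d on folic acid and 2 on control, a scale on which the fall of Sbp raises the share of every other gene. The log2 changes that turned sign on that scale, among those called on at least 1 of the 2 scales, are as follows. At 3 d on folic acid they were 0.16 for Acly, 0.17 for Acsl4, 0.60 for Elovl5, 0.53 for Pnpla2, 0.52 for Srebf1 and 0.12 for Tecr. At 3 d on control they were 0.23 for Acly, 0.06 for Acsl4, 0.65 for Elovl5, 0.64 for Pnpla2 and 0.03 for Tecr. At 10 d on folic acid they were 0.80 for Acly, 0.39 for Acsl1, 0.49 for Acsl4, 0.49 for Acsl5, 1.22 for Dgat1, 1.24 for Elovl5, 1.10 for Elovl6, 1.10 for Hsd17b12, 0.80 for Lpin1, 0.46 for Pnpla2, 0.58 for Srebf1 and 0.39 for Tecr. At 10 d on control they were 0.60 for Acly, 0.38 for Acsl1, 0.16 for Acsl4, 0.79 for Acsl5, 0.71 for Elovl5, 1.07 for Hsd17b12, 0.60 for Pnpla2, 0.32 for Srebf1 and 0.64 for Tecr. Others turned sign without a call on either scale, such as Elovl1 on control (0.32 and 0.46 at 3 d and 10 d) and Acsl1 at 3 d (0.42 and 0.13 on folic acid and control).

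The replicate numbers did not pair the libraries: of 55 pairs with the same number, 5 had deviations correlated above 0.1 (-0.149 to 0.237), and 7 of 23 libraries correlated best with their own number. With the number as a replicate block, 11 and 12 members were called at 3 d on folic acid and control, 15 and 14 at 10 d, and 1 at 10 d against 3 d on control. The fit with only the groups compared was not made for the mean over the 3 states, which uses all groups. Low counts limit Acacb, Elovl4, Fads3, Acsl6, Pnpla3 and Mlxipl, whose mean log2 CPM was under 1, with median SEs from 1.21 to 1.61.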
